A study of Mus musculus with 15 samples.

Results

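Replication-dependent histone genes were followed in embryonic stem (ES) cells of the mouse line E14Tg2A that received first an antisense oligonucleotide (ASO) and later an siRNA. The set holds every row of the gene count table whose symbol starts with Hist1h, Hist2h, Hist3h or Hist4h and whose mean raw count over the libraries was at least 10, which is 14 of 68 such rows and of 23284 genes in all. The ASO (5 nmol) went in by nucleofection and the siRNA (100 pmol in each well) by lipofection 7 h later, and unsorted cells were harvested after 2 days. The RC ASO, a control, was combined with siControl, siDux or siNcl, and these groups are named RC control, RC siDux and RC siNcl. The LINE1 ASO was combined with siControl or siDux, giving the groups LINE1 control and LINE1 siDux, for 5 groups of 3 libraries. The siRNAs siDux and siNcl are directed at Dux and Ncl, and every group, the controls included, went through both procedures. The labels do not say whether replicates were separate cultures, so p-values measure the spread between these libraries, which may be technical.

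Replication-dependent histone genes sit in clusters and are transcribed mostly in S phase, when newly copied DNA needs packing. H2A, H2B, H3 and H4 form the core of the nucleosome, and H1 is the linker histone that binds where DNA enters and leaves it. Most of their mRNAs end in a stem-loop bound by Slbp and cut with the help of the U7 snRNP, in place of a poly(A) tail, so a library made from polyadenylated RNA mainly captures the few that are also polyadenylated.

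Reads were few and lay on a handful of genes. The 68 rows together held 11597 counts, 0.0047% of all gene counts, and 7 of them were at 0 in every library. H1 had 5 members of 6 rows (Hist1h1a, Hist1h1b, Hist1h1c, Hist1h1d and Hist1h1e), H2A had 3 of 18 (Hist1h2ac, Hist1h2ae and Hist3h2a) and H2B had 3 of 19 (Hist1h2bc, Hist2h2be and Hist3h2ba). H3 had 2 of 12 (Hist1h3c and Hist2h3c1), H4 had 1 of 13 (Hist1h4i), and no symbol starting with Hist4h reached the minimum. Members took 79.7% of the counts of the 68 rows. By class, H1 held 39.75% of member counts, H2B 28.01%, H2A 19.1%, H4 7.84% and H3 5.3%. Hist1h1c (29.31%), Hist1h2bc (19.74%) and Hist3h2a (15.54%) together took 64.59%. The members nearest the minimum were Hist1h2ae (mean 11.73), Hist1h1e (11) and Hist1h2ac (10.2), and the rows just below it were Hist1h2be (8.33), Hist1h4d (8.13) and Hist2h2bb (7.93). Hist1h2ae, Hist1h1e and Hist1h2ac reached the minimum only with the LINE1 siDux libraries included, which had the most gene counts. These are shares of reads, which grow with transcript length and capture, not of transcripts.

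Histone genes are near copies of each other, and the sources used here do not state how reads mapping to several genes were assigned. In the GENCODE M21 transcripts (GRCm38), the share of a gene's 50-base words found in another annotated gene had a median of 25.52% over the 14 members and of 61.98% over the 54 rows below the minimum. H1 members shared least, with a median of 2.25% and none for Hist1h1a and Hist1h1b. Hist2h2be shared none either, while Hist1h3c shared 46.99% and Hist2h3c1 100%, the latter mostly with the overlapping locus Gm20634, so reads of these H3 genes are uncertain in their origin. Hist1h2bc shared 30.6%, mostly with Hist1h2bg. Hist3h2a shared 31.5%, mostly with the overlapping gene Trim17, which itself had at most 0.426 CPM (counts scaled to library size) in any library. The longest annotated transcript of a gene had a median of 1358 bases over members and 486.5 over the other rows.

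**Figure D1:**
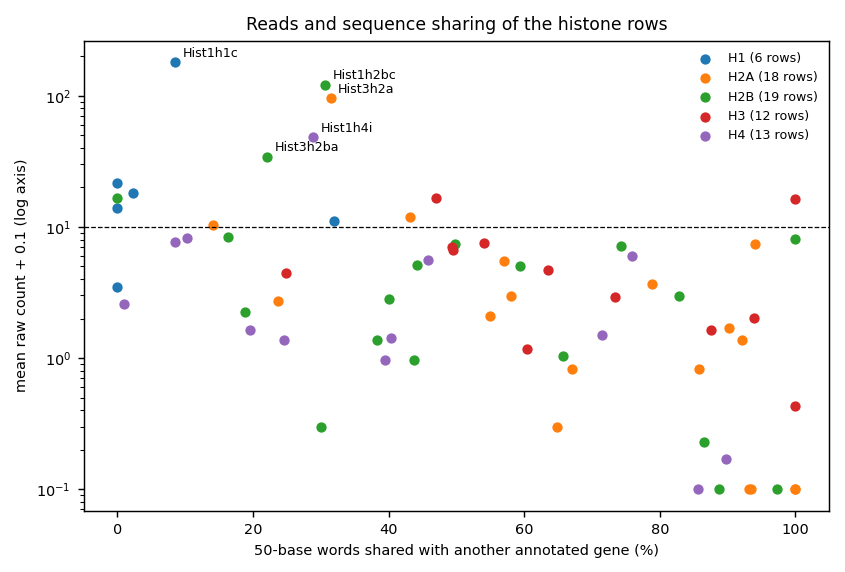
Mean raw count over 15 libraries (log axis, 0.1 added so that rows at 0 show) against the percentage of 50-base words shared with another annotated gene, for the 68 histone rows coloured by class. The dashed line is the minimum of 10 counts. The 3 highest points, Hist1h1c, Hist1h2bc and Hist3h2a, share 8.54%, 30.6% and 31.5%, and only Hist2h3c1, at 100%, lies above the line with more than 50% shared.

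All 14 members matched a RefSeq gene (GRCm38.p6), 10 of them on chromosome 13, 2 on chromosome 11 (Hist3h2a and Hist3h2ba) and 2 on chromosome 3 (Hist2h2be and Hist2h3c1). The RefSeq promoter table held 12 of them, all but Hist1h2bc and Hist2h2be. The 200 bases upstream of the annotated start are shown for the H1 gene with the most reads and for H1 relatives with and without the same elements, for Hist3h2a, and for Hist1h2ac. The last of these lies in the 239 bases between the divergent starts of Hist1h2ac and Hist1h2bc, the gene with the clearest change below. Capitals mark exact matches, on either strand, to TATAAA (the TATA box), to CCAAT (the CCAAT box), to ATTTGCAT (the octamer) and to AAACACA (the H1 box), and no matches overlap.
Hist1h1c, chr13:23738607-23738806, plus strand: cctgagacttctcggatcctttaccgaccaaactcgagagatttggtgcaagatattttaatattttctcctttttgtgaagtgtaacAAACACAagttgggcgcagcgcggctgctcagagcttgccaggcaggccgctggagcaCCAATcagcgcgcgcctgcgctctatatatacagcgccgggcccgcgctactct
Hist1h1d, chr13:23554832-23555031, plus strand: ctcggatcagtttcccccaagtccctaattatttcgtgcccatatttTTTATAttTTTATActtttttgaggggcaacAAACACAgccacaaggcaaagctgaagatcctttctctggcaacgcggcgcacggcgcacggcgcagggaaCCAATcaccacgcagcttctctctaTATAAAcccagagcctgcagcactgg
Hist1h1a, chr13:23763468-23763667, plus strand: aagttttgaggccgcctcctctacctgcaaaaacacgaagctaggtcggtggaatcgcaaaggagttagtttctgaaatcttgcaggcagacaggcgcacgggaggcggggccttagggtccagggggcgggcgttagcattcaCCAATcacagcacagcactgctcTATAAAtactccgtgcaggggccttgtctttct
Hist3h2a, chr11:58954485-58954684, plus strand: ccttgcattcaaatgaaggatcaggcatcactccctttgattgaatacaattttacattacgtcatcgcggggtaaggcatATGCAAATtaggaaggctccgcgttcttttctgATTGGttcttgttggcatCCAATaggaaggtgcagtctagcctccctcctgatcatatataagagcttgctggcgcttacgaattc
Hist1h2ac, chr13:23683960-23684159, minus strand: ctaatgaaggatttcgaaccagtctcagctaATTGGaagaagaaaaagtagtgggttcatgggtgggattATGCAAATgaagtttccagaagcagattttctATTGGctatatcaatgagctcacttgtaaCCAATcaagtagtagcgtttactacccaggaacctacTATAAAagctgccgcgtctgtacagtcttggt

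Over windows from 250 bases before to 50 after the start, CCAAT was found in 11 of 12 members, against 37.359% of 32544 mouse promoters, and TATAAA in 8 of 12, against 13.569%. AAACACA was found in 4 of 12 (7.196% of promoters), all of them H1 genes, at -112 in Hist1h1c, -122 in Hist1h1d, -117 in Hist1h1b and -115 in Hist1h1e, and not in Hist1h1a. Each of the 5 H1 genes had a forward CCAAT between -56 and -51. The octamer was found in 3 of 12 (1.751% of promoters), the 3 H2A genes, in reverse orientation at -119 in Hist3h2a, -128 in Hist1h2ae and -130 in Hist1h2ac. These are matches of letters and were not tested as binding sites.

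Gene counts per library ran from 9.546 M to 27.564 M, and members had 263 to 1561 counts per library, so many members rest on few reads. The library RC control 2 stood apart from its group, and the main results that it moves are also given without it. For the summed levels, leaving it out was chosen after seeing the data. All 10 pluripotency markers were above 0 in every library, with summed levels of 4318 to 9321 CPM. Fibroblast markers, 6 of 10 above 0 in every library, summed to 46.7 to 68.7 CPM. Ncl was at 516 to 644 CPM in RC siNcl and at 3220 CPM or more in every other library. The sources used here name an mRNA-seq kit used on total RNA and do not state whether polyadenylated RNA was selected. Rows of snoRNAs, scaRNAs and snRNAs, which lack a poly(A) tail, summed to 57.4 to 137.9 CPM in a library.

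Levels below are CPM over the gene total, scaled by TMM, and set 1 gene beside itself across groups. Changes are log2 with their SE from edgeR's quasi-likelihood test on all 15 libraries, and adjusted p-values are by Benjamini-Hochberg over the 14696 genes tested, which hold all 14 members. Over the 5 groups together, 3 of 14 members differed at an adjusted p under 0.05, against 43.2% of all genes: Hist1h2bc (adjusted p = 1.82e-05), Hist3h2a (0.00357) and Hist1h4i (0.0261). Hist2h3c1 followed with an adjusted p of 0.0505. LINE1 siDux had the highest group mean for 8 of the 14 members and RC siDux for 3. Hist1h2ac, among these 8, reached the minimum count only with the LINE1 siDux libraries.

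**Figure D2:**
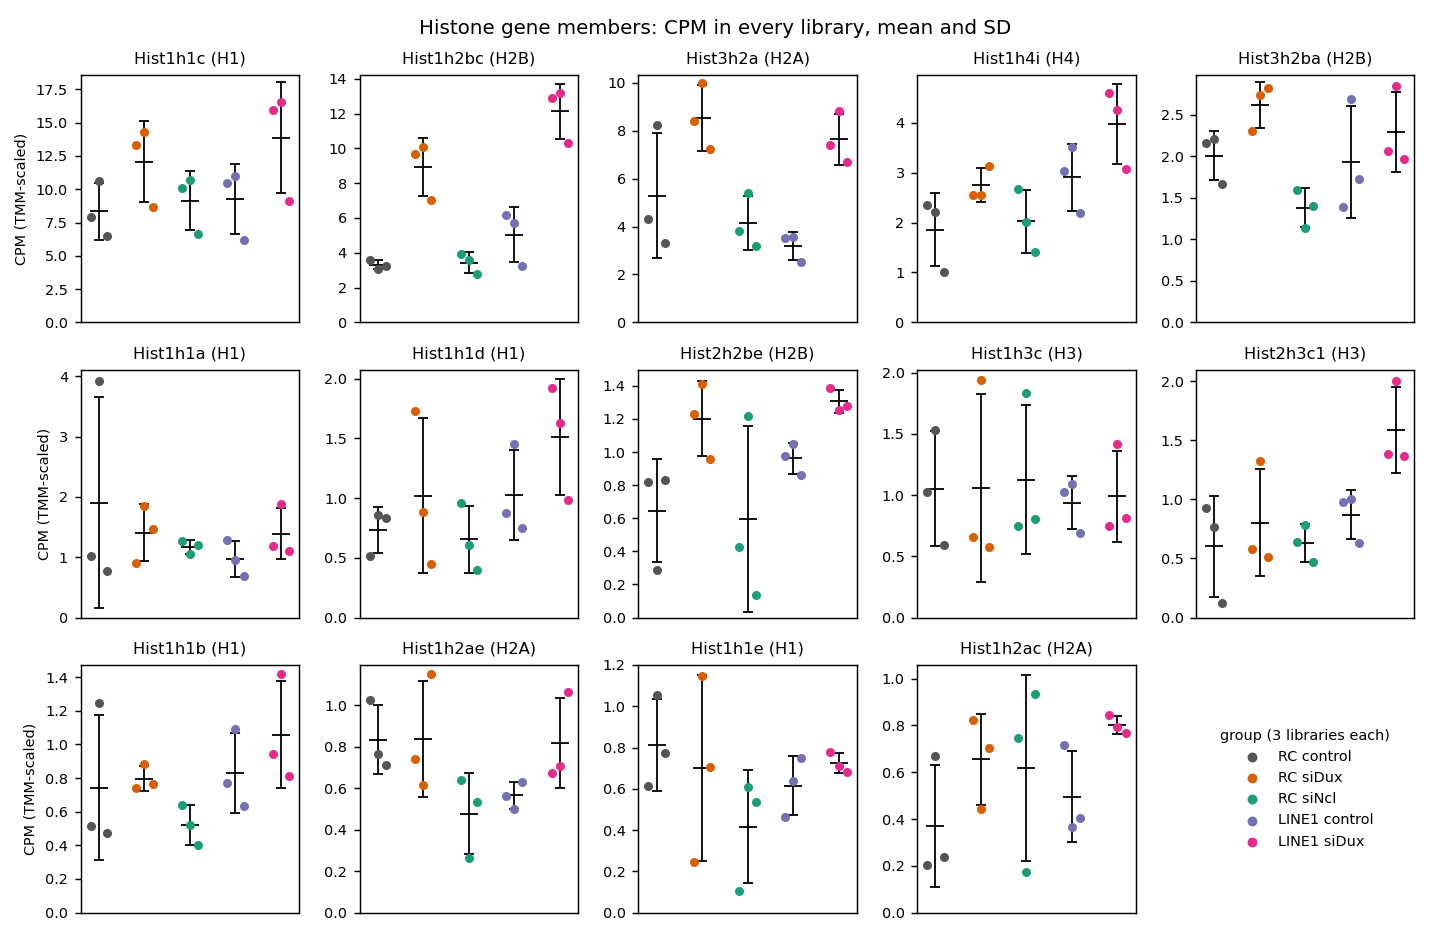
CPM (TMM-scaled) of each of the 14 members in every library, with the group mean as a dash and the SD over 3 libraries as a bar. Hist1h2bc lies between 7.04 and 13.2 CPM in the 6 siDux libraries and between 2.81 and 6.15 in the other 9, and most other members overlap between groups.

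Dux encodes a transcription factor of the 2-cell embryo, and the siDux comparisons ask how histone genes respond when it is targeted. Dux itself has near-identical copies and few reads. It had 4, 1 and 3 counts in RC control and 2, 0 and 5 in RC siDux, which does not show a lower level (-0.29 ± 0.83, adjusted p = 0.862). In LINE1 control it was at 1.28, 0.820 and 1.38 CPM and in LINE1 siDux at 0.642, 0.459 and 0.512 CPM. These groups did not overlap, but the change did not pass (-1.07 ± 0.41, adjusted p = 0.298).

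Under RC ASO, siDux was accompanied by more Hist1h2bc, an H2B gene. Hist1h2bc was at 3.59, 3.06 and 3.27 CPM in RC control and at 9.70, 10.1 and 7.04 CPM in RC siDux. All 3 siDux libraries lay above all 3 controls. The change was 1.43 ± 0.24 (SE) on the log2 scale, 2.69-fold, with an adjusted p of 0.00159. It was the 1 member called higher of 14 (background 6.09% of genes), and 0 were called lower (4.5%). By DESeq2 the counts were likewise 1 and 0, and at an unadjusted p under 0.05 they were 2 and 0. Here and in the comparisons of groups below, the share of all genes by DESeq2 or at an unadjusted p is not given. Such counts of members therefore have no background and show no excess over it.

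Libraries of RC siDux and RC control did not overlap for 4 members, all higher, against 14.2% of genes higher and 13.4% lower. Beside Hist1h2bc these were Hist1h4i, Hist3h2ba and Hist2h2be. Hist1h4i, the H4 member, was at 2.36, 2.20 and 1.01 CPM in RC control and at 2.55, 2.56 and 3.14 CPM in RC siDux, a log2 change of 0.64 ± 0.33 (adjusted p = 0.225). The H2B gene Hist3h2ba was at 2.15, 2.20 and 1.66 CPM against 2.30, 2.73 and 2.82 CPM, and its change of 0.41 ± 0.28 did not pass (adjusted p = 0.371). The remaining H2B gene, Hist2h2be, was at 0.820, 0.287 and 0.832 CPM against 1.23, 1.41 and 0.960 CPM, with 3 to 16 counts a library (0.83 ± 0.49, adjusted p = 0.289). All 3 H2B members were thus separated between these groups, and 1 of them passed the test.

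Hist3h2a, the H2A gene with most reads, was at 4.31, 8.23 and 3.33 CPM in RC control and at 8.38, 9.97 and 7.23 CPM in RC siDux. Only RC control 2 reached the range of the siDux libraries. Its change was 0.71 ± 0.28 (adjusted p = 0.114), and without RC control 2 it was 1.18 (adjusted p = 0.0092). Over the 13 alternatives run, the change of Hist3h2a was 0.43 to 1.18, and it was called in 2. The linker histone gene Hist1h1c was at 7.90, 10.6 and 6.48 CPM against 13.3, 14.3 and 8.64 CPM, a change of 0.54 ± 0.29 with an interval of -0.11 to 1.19 (adjusted p = 0.244). Its overlap rests on RC control 2, without which the change was 0.75 (adjusted p = 0.170). Over the 13 alternatives the change of Hist1h1c was 0.37 to 0.94, and it was called in 1. Libraries with the same number deviated together in this comparison. With the replicate number as a block 3 members were called higher (background 9.06%) and 0 lower (7.66%): Hist1h2bc, Hist1h1c (adjusted p = 0.0105) and Hist3h2a (adjusted p = 0.0112).

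Under LINE1 ASO, siDux was accompanied by more Hist1h2bc and Hist3h2a. Hist1h2bc was at 6.15, 5.74 and 3.22 CPM in LINE1 control and at 12.9, 13.2 and 10.3 CPM in LINE1 siDux. The groups did not overlap, and the change was 1.26 ± 0.21 on the log2 scale, 2.40-fold (adjusted p = 0.0117). Hist3h2a was at 3.54, 3.55 and 2.53 CPM against 7.40, 8.81 and 6.70 CPM. Here too every siDux library exceeded every control, by 1.24 ± 0.27, 2.37-fold (adjusted p = 0.0449). These were 2 of 14 members called higher, against 0.544% of all genes, and 0 were called lower (0.306%). DESeq2 gave the same 2 and 0.

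These calls are close to the threshold. Without LINE1 control 3 or without LINE1 siDux 2 no member was called, with adjusted p-values of 0.0506 and 0.0700 for Hist1h2bc, and without any 1 of the other 4 libraries Hist1h2bc alone was called. In a fit on the groups compared only, Hist3h2a alone was called, and Hist1h2bc had an adjusted p of 0.0516. Scaled to the ERCC spike-ins no gene of the set passed, while the changes of Hist1h2bc and Hist3h2a were 1.13 and 1.12. The share of all genes called with this scaling is not given here, so the loss is not particular to these genes. Spike-in counts ran from 0.27% to 0.65% of the gene total over the libraries and were lowest in replicate 1 of every group. How this bears on the calls was not tested. With the replicate number as a block, an alternative because the labels name no batch, 3 members were called higher (background 2.08%) and 0 lower (0.959%). Hist1h1c was the added one (adjusted p = 0.0118).

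Libraries of LINE1 siDux and LINE1 control did not overlap for 6 members, all higher, against 11.7% of genes higher and 11.1% lower. They came from H2A (Hist3h2a, Hist1h2ae and Hist1h2ac), H2B (Hist1h2bc and Hist2h2be) and H3 (Hist2h3c1). Hist2h3c1 was at 0.974, 1.00 and 0.633 CPM against 1.39, 2.00 and 1.37 CPM, a change of 0.84 ± 0.40 (adjusted p = 0.422). Hist1h2ac, which faces Hist1h2bc across the sequence printed above, was at 0.718, 0.364 and 0.403 CPM against 0.845, 0.793 and 0.768 CPM, or 7 to 14 counts against 18 to 25, a change of 0.69 ± 0.43 (adjusted p = 0.572). Hist2h2be was at 0.974, 1.05 and 0.863 CPM against 1.39, 1.25 and 1.28 CPM (0.44 ± 0.39, adjusted p = 0.742). Hist1h2ae was at 0.564, 0.501 and 0.633 CPM against 0.676, 0.710 and 1.07 CPM (0.52 ± 0.33, adjusted p = 0.585). None of these 4 passed the test. Hist1h2ae and Hist1h2ac reached the minimum count only with the LINE1 siDux libraries, so the selection favoured their separation here.

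The log2 ratio of group means was above 0 for all 14 members under LINE1 ASO (13 of 14 when scaled to the ERCC spike-ins), with a median of 0.52, and for 12 of 14 under RC ASO (14 with ERCC scaling), with a median of 0.44. Over all genes with a mean count of at least 10, 49.0% and 48.8% were above 0, and the medians were near 0, at -0.004 and -0.009. Hist1h2ae, Hist1h1e and Hist1h2ac reached the minimum count only with the LINE1 siDux libraries. This selection favours values above 0 for them under LINE1 ASO, so they are no separate support there. ERCC scaling moved the median of all genes to -0.12 and 0.30, and that of members to 0.36 and 0.71. The share of all genes above 0 with ERCC scaling is not given, so the counts of members with it have no background. The 2 members below 0 under RC ASO were Hist1h1a and Hist1h1e. Hist1h3c, an H3 gene, differed least among the members with siDux under LINE1 ASO, by 0.06 with an interval of -0.95 to 1.06, which at 19 to 34 counts in LINE1 siDux does not exclude a 2-fold change. For 0 of 14 members did the siDux change differ between the ASOs, and for 0 at an unadjusted p under 0.05, nor did it for any other gene by edgeR (0 of 14696). DESeq2 gave 0 of 14 members, with 1 higher and 9 lower over all genes. The interaction was -0.17 ± 0.32 for Hist1h2bc and 0.53 ± 0.39 for Hist3h2a (adjusted p = 0.981 for each).

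**Figure D3:**
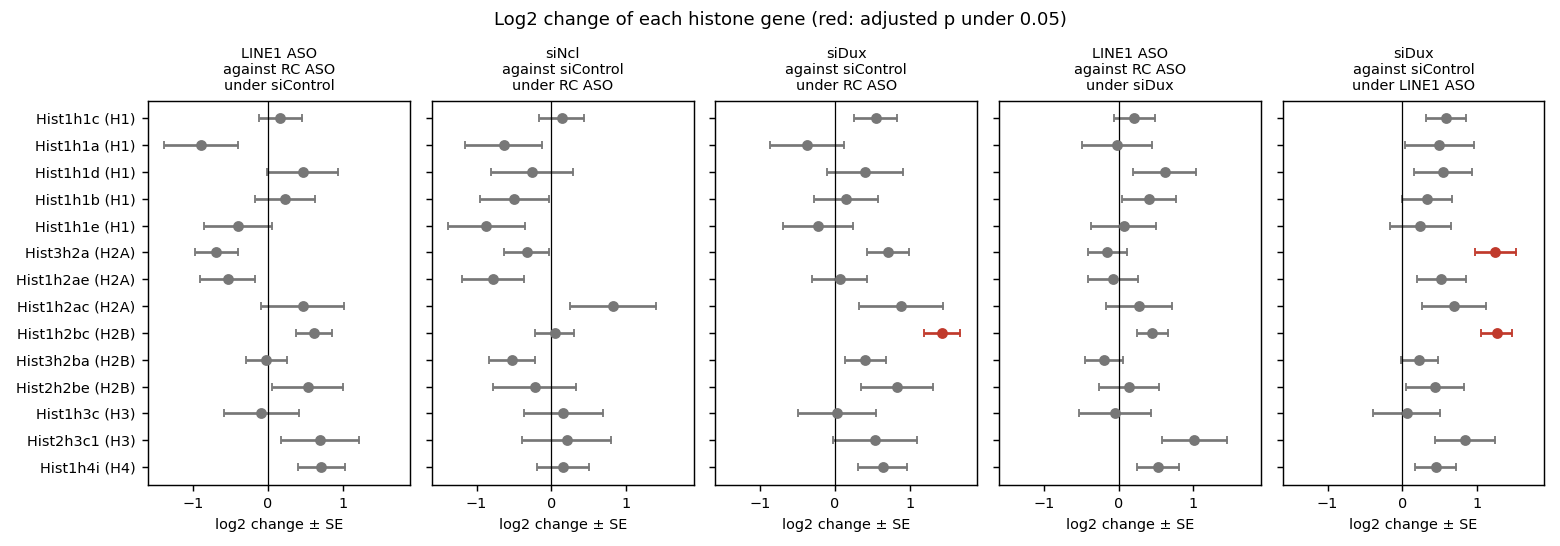
Log2 change with its SE for each member, by class, in 5 comparisons, from edgeR's quasi-likelihood test, with adjusted p under 0.05 in red. The points in red are Hist1h2bc with siDux under either ASO and Hist3h2a with siDux under LINE1 ASO.

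Markers of the Dux-driven 2-cell-like state, which few ES cells occupy at a time, moved with siDux in the other direction. Of 16 markers, 0 rose and 7 fell with siDux under RC ASO (4.5% of genes fell), and 0 rose and 12 fell under LINE1 ASO (0.306%). Their summed level was at most 25.4 CPM in RC control, 3.26 to 5.70 in RC siDux, 138.9 to 168.4 in LINE1 control, 39.9 to 53.1 in LINE1 siDux and 89.1 to 163.1 in RC siNcl, and none of the 16 was at 0 in all libraries. With siNcl and with LINE1 ASO under siControl 15 of the 16 rose and 0 fell, and Hist1h2bc differed by 0.04 ± 0.26 and 0.62 ± 0.24, neither of which passed. The part of this state in the histone values was not tested. In bulk RNA, a change in the share of cells and a change of RNA per cell cannot be told apart.

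LINE1 ASO is directed at the RNA of LINE1, an abundant family of mobile elements, and its comparison with RC ASO asks what changes when that RNA is targeted. Under siControl 0 of 14 members were called higher or lower, where 9.35% of genes were called higher and 9.69% lower. DESeq2 gave 0 and 0 as well, and at an unadjusted p under 0.05 there were 2 higher (Hist1h2bc and Hist1h4i) and 1 lower (Hist3h2a). With the values given above, the LINE1 control libraries overlapped RC control for Hist1h2bc, which differed by 0.62 ± 0.24 (adjusted p = 0.0809). The library LINE1 control 3, at 3.22 CPM, lay within the RC control range, and without it the change was 0.86 (adjusted p = 0.0103). Hist3h2a differed by -0.69 ± 0.29 (adjusted p = 0.106). Without RC control 2, the highest library of its group, this was -0.22 (adjusted p = 0.608), and without RC control 3, the lowest, it was -0.96 (adjusted p = 0.0248).

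Hist1h4i was at 3.02, 3.51 and 2.19 CPM in LINE1 control, a difference of 0.72 ± 0.32 from RC control (adjusted p = 0.119). Hist1h1a had the lowest fitted value, -0.89 ± 0.49 (adjusted p = 0.209), from 1.03, 3.93 and 0.772 CPM in RC control and 1.28, 0.956 and 0.690 CPM in LINE1 control. It rests on RC control 2, without which it was 0.17, and without RC control 3 it was -1.34 (adjusted p = 0.0471). Libraries did not overlap for 1 member higher, Hist2h2be, and 1 lower, Hist1h2ae, against 16.7% and 15.4% of genes.

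Under siDux, LINE1 ASO again gave 0 of 14 members called in either direction (background 2.31% higher and 0.749% lower, and 0 and 0 by DESeq2), with 2 higher and 0 lower at an unadjusted p under 0.05. Those 2, Hist1h2bc (0.45 ± 0.21, adjusted p = 0.241) and Hist2h3c1 (1.01 ± 0.44, adjusted p = 0.208), were also the members without overlap, against 15.2% of genes higher and 16.2% lower. Hist2h3c1 was at 0.575, 1.32 and 0.512 CPM in RC siDux, against the values of LINE1 siDux above. Hist1h4i was at 4.60, 4.26 and 3.07 CPM in LINE1 siDux, which overlapped RC siDux by 1 library (0.53 ± 0.28, adjusted p = 0.315). In Hist1h4i the group means ran from 1.86 CPM in RC control through 2.02 in RC siNcl, 2.75 in RC siDux and 2.91 in LINE1 control to 3.98 in LINE1 siDux, and neighbours in this order overlapped.

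Ncl encodes nucleolin, a nucleolar RNA-binding protein, and siNcl was compared with siControl under RC ASO. No member was called (0 of 14 higher, 0 lower), where 16.7% of genes were called higher and 15.6% lower. DESeq2 also gave 0 and 0, and no member reached an unadjusted p under 0.05 in either direction. Hist1h2bc was at 3.94, 3.58 and 2.81 CPM in RC siNcl, a difference of 0.04 ± 0.26 with an interval of -0.54 to 0.62. Hist1h1c was at 10.1, 10.7 and 6.61 CPM (0.14 ± 0.30, interval -0.53 to 0.80). Hist3h2a was at 3.83, 5.41 and 3.21 CPM (-0.33 ± 0.30, interval -0.999 to 0.34).

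Libraries of RC siNcl lay below RC control without overlap for 3 members, against 20.9% of genes (22.1% higher). Hist3h2ba was at 1.60, 1.13 and 1.40 CPM (-0.53 ± 0.30, adjusted p = 0.201). Hist1h2ae, on 3 to 8 counts, was at 0.639, 0.262 and 0.534 CPM (-0.78 ± 0.42, adjusted p = 0.166). Hist1h1e, on 1 to 8 counts, was at 0.106, 0.610 and 0.534 CPM against 0.615, 1.05 and 0.772 CPM (-0.87 ± 0.52, adjusted p = 0.214). At this depth the intervals of such members span more than a 2-fold range.

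By class, the summed level of members was described without a test. H2B summed to 6.56, 5.55 and 5.76 CPM in RC control and 13.2, 14.2 and 10.8 CPM in RC siDux, 2.14-fold by the means. In LINE1 control it was 8.51, 9.47 and 5.81 CPM and in LINE1 siDux 16.3, 17.3 and 13.6 CPM, 1.98-fold. Neither pair overlapped. H2A summed to 4.82, 4.42 and 3.57 CPM in LINE1 control and 8.92, 10.3 and 8.54 CPM in LINE1 siDux, 2.17-fold without overlap. Under RC ASO it was 5.54, 9.67 and 4.28 CPM in the controls and 9.95, 11.03 and 9.09 CPM with siDux (1.54-fold). Only RC control 2 reached the siDux libraries, and without it the ratio was 2.04-fold with no overlap. Hist1h2bc made up 55.5% to 77.2% of the H2B sum over the groups, and Hist3h2a 75.1% to 85.1% of the H2A sum.

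H1 overlapped in every comparison, with siDux under RC ASO through RC control 2 alone. It summed to 16.9, 19.1 and 12.03 CPM in RC siDux, 10.6, 17.7 and 9.33 CPM in RC control, 13.8, 15.2 and 9.03 CPM in LINE1 control, and 20.8, 22.2 and 12.7 CPM in LINE1 siDux. With siDux under RC ASO the ratio was 1.28-fold, and 1.61-fold with no overlap without RC control 2. H3 was 1.43-fold higher with siDux under LINE1 ASO and H4 1.48-fold under RC ASO, each without overlap, and both overlapped under the other ASO. The H4 sum is Hist1h4i alone. In H3 the highest LINE1 control library was at 2.095 CPM and the lowest LINE1 siDux library at 2.128 CPM. The group mean went from 0.870 to 1.585 CPM in Hist2h3c1, whose reads are uncertain in origin, and from 0.936 to 0.991 CPM in Hist1h3c. Scaled to ERCC spike-ins, the libraries overlapped for all 5 classes with siDux under either ASO. The sum of all 14 members was 1.69-fold higher with siDux under LINE1 ASO without overlap. It was 1.55-fold without Hist1h2bc, still without overlap, and 1.36-fold with overlap once Hist3h2a and Hist1h1c were also left out. Under RC ASO the same ratios were 1.52-fold, 1.37-fold and 1.20-fold, each with overlap, and without RC control 2 they were 1.81-fold, 1.67-fold and 1.44-fold, each with none.

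The 54 rows below the minimum summed to 9.91 CPM in LINE1 siDux and 9.56 CPM in LINE1 control, 1.04-fold with overlap. In RC siDux they summed to 10.8 CPM and in RC control to 8.20 CPM, 1.32-fold with overlap, and 1.59-fold with none without RC control 2. Their 16 H2B rows were 1.88-fold higher with siDux under RC ASO without overlap, at 14 to 62 counts a library, and 1.19-fold with overlap under LINE1 ASO.

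**Figure D4:**
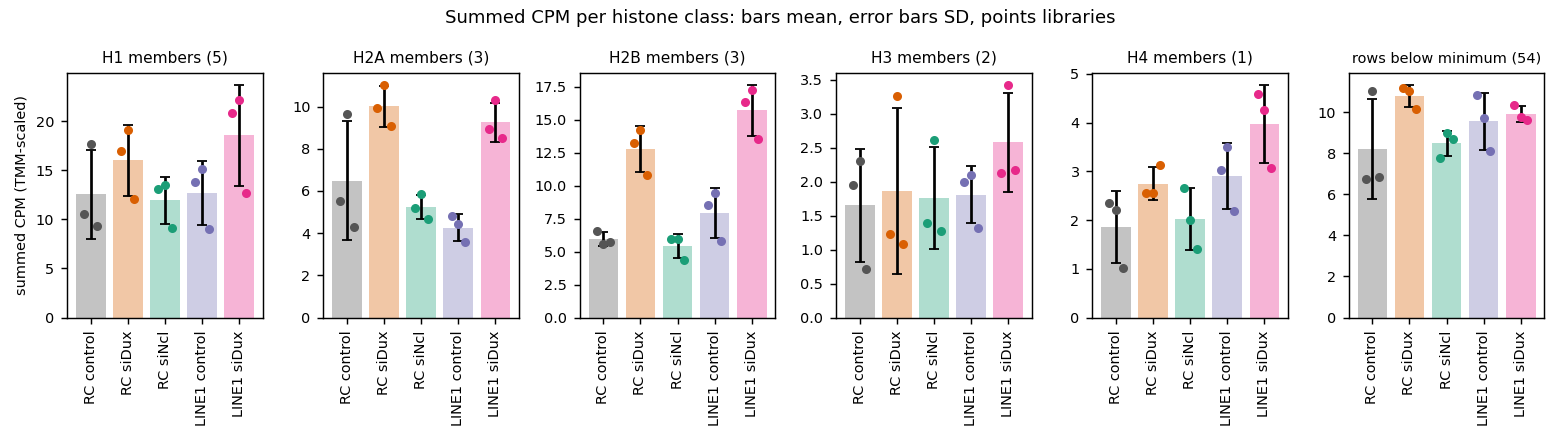
Summed CPM (TMM-scaled) of the members of each histone class, and of the 54 rows below the minimum, with bars for group means, error bars for the SD over 3 libraries and points for libraries. H2B is separated between siDux and siControl under both ASOs, and H1 overlaps in every comparison, under RC ASO through RC control 2 at 17.7 CPM.

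Within groups, libraries numbered 3 tended to be lowest. For Hist1h1c, Hist3h2a and Hist2h3c1 replicate 3 was the lowest of its group in all 5 groups, which held for 21.43% of members and 4.28% of genes with a mean count of at least 10. In at least 4 groups it held for 7 of 14 members (50.0%) and for 14.36% of genes. Hist1h1c was at 6.48, 8.64, 6.61, 6.21 and 9.09 CPM in the 5 libraries numbered 3 and at 7.90 CPM or more in the other 10. The labels name no batch, and what these libraries share was not tested. Deviations from group means correlated between members with a median of 0.248 over 91 pairs, and of 0.385 over the 10 pairs within H1. These are described over the same 15 libraries, which share depth and scaling.

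Genes that make or process histone mRNA were counted in lists chosen from general knowledge. Of 32 such factors, 2 (6.25%) rose and 2 fell with siDux under RC ASO, near the 6.09% and 4.5% of all genes, and 0 changed under LINE1 ASO (0.544% and 0.306%). Slbp, the stem-loop binding protein, fell by 0.41 ± 0.11 (adjusted p = 0.0311), to 135.4, 130.5 and 123.1 CPM from 149.3, 217.3 and 151.0 CPM in RC control. It was no longer called without RC control 2 (-0.21, adjusted p = 0.0780), without any 1 of the 3 RC siDux libraries (-0.37 to -0.44, adjusted p 0.0633 to 0.130), in a fit on the groups compared only (adjusted p = 0.177) or with ERCC scaling (-0.02). Snrpe, an Sm protein that the U7 snRNP shares with spliceosomal snRNPs, was at 137.5, 368.9 and 127.5 CPM in RC control and at 63.3, 71.4 and 65.4 CPM in RC siDux (-1.66 ± 0.28, adjusted p = 0.00163). Without RC control 2, its highest library, the difference was -0.99 and still passed (adjusted p = 5.96e-05), while the fit on the groups compared only (adjusted p = 0.0540) and ERCC scaling (-1.17, adjusted p = 0.218) did not. Under LINE1 ASO it was at 109.4, 107.3 and 126.0 CPM against 66.1, 68.1 and 67.8 CPM, a separation that did not pass (-0.76 ± 0.27, adjusted p = 0.254) but did in the fit on those groups only (adjusted p = 0.00694). Npat, the coactivator of histone gene transcription, differed with siDux by 0.14 ± 0.09 under RC ASO and 0.06 ± 0.09 under LINE1 ASO (adjusted p = 0.340 and 0.860).

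With siNcl, 5 of the 32 factors rose (15.6%) and 8 fell (25.0%), against 16.7% and 15.6% of all genes. With LINE1 ASO under siControl 4 rose and 4 fell (12.5% each), against 9.35% and 9.69%. Slbp fell by 0.62 ± 0.12 with siNcl (adjusted p = 0.000674), to 113.6, 113.4 and 109.3 CPM. Lsm11, a protein of the U7 snRNP, fell by 0.63 ± 0.15 (adjusted p = 0.00443). With ERCC scaling neither was called (-0.52 and -0.57). Of 59 S-phase genes, 2 rose (3.39%) and 30 fell (50.8%) with siNcl, against 16.7% and 15.6% of all genes, with a median change of -0.28 against -0.01 over all genes tested. Pcna, the sliding clamp of DNA polymerase, fell by 0.78 ± 0.10 (adjusted p = 1.55e-05, and 0.617 with ERCC scaling) and Pola2, a subunit of DNA polymerase alpha, fell by 0.72 ± 0.08 (adjusted p = 4.59e-06, and 0.685 with ERCC scaling). With siDux 2 S-phase genes rose (3.39%) and 8 fell (13.6%) under RC ASO, against 6.09% and 4.5% of all genes, and 0 changed under LINE1 ASO. With LINE1 ASO 1 rose (1.69%) and 7 fell (11.9%) under siControl, against 9.35% and 9.69%, and 0 changed under siDux.

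The genes listed here as replication-independent histone genes are known in polyadenylated forms. Of 11 tested, 0 rose in any comparison, and 2 fell with siDux under RC ASO (18.2%, against 4.5% of all genes), 3 with siNcl (27.3%, against 15.6%) and 2 with LINE1 ASO under siControl (18.2%, against 9.69%), and 0 changed in the others. Those with LINE1 ASO were H2afx (-0.81 ± 0.19, adjusted p = 0.0116) and H2afz. H2afx was at 291.8, 472.1 and 217.4 CPM in RC control and at 172.1, 194.4 and 191.2 CPM in LINE1 control. RC control 2 was the highest of these libraries, and the change of H2afx without it is not given. H2afz, which encodes the variant H2A.Z, fell by 0.51 ± 0.10 with siDux under RC ASO (adjusted p = 0.00419), by 0.67 ± 0.10 with siNcl (adjusted p = 8.57e-05) and by 0.38 ± 0.10 with LINE1 ASO (adjusted p = 0.0160). With ERCC scaling these were -0.14, -0.58 and -0.15 and none passed. With LINE1 ASO the call was also lost without LINE1 control 1 (adjusted p = 0.0878) or 2 (adjusted p = 0.0728), and in fits on the groups compared only it was lost there (adjusted p = 0.148) and with siDux (adjusted p = 0.0654). Of 22 histone chaperones, 6 fell (27.3%) and 0 rose with siDux under RC ASO, against 4.5% and 6.09% of all genes. With siNcl 6 fell (27.3%) and 1 rose (4.55%), against 15.6% and 16.7%. With LINE1 ASO 4 fell (18.2%) and 1 rose (4.55%) under siControl, against 9.69% and 9.35%, and 0 fell and 1 rose under siDux, against 0.749% and 2.31%. With siDux under LINE1 ASO 0 changed. Nasp, a chaperone of H1 and of H3 with H4, fell by 0.35 ± 0.09 with siDux under RC ASO (adjusted p = 0.0170). It was not called without RC siDux 3 (adjusted p = 0.102), on the groups compared only (adjusted p = 0.121) or with ERCC scaling (-0.006).

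RNAs without a poly(A) tail served as a measure of what the libraries captured. Of 59 tested, 2 rose (3.39%) and 0 fell with siDux under RC ASO, against 6.09% and 4.5% of all genes. With siNcl 1 rose (1.69%) and 2 fell (3.39%), against 16.7% and 15.6%. With LINE1 ASO 0 rose and 9 fell (15.3%) under siControl, against 9.35% and 9.69%, and 0 rose and 2 fell (3.39%) under siDux, against 2.31% and 0.749%. With siDux under LINE1 ASO 0 changed. The 125 rows of the list summed to 1.51-fold more with siDux under RC ASO and 1.29-fold more under LINE1 ASO, both without overlap.

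Most of that sum was Rn45s, the ribosomal RNA precursor, at 3165, 4016 and 2310 CPM in RC control and 5157, 4939 and 5306 CPM in RC siDux (0.70 ± 0.16, adjusted p = 0.0110). The call was lost on the groups compared only (adjusted p = 0.0702) and with ERCC scaling (1.03, adjusted p = 0.204). Under LINE1 ASO Rn45s was at 2275, 2378 and 2167 CPM against 2789, 3027 and 3506 CPM, which did not overlap but did not pass (0.45 ± 0.16, adjusted p = 0.245). The snoRNA, scaRNA and snRNA rows summed to 105.0 to 136.1 CPM in RC control, 116.9 to 137.9 in RC siDux, 57.4 to 101.2 in LINE1 control and 62.0 to 106.7 in LINE1 siDux, with overlap between siDux and siControl under each ASO. The part of capture in the histone values was not tested. A list of 11 histone rows whose human counterparts are known in polyadenylated forms had 4 rows tested, with 1 higher and 0 lower with siDux under each ASO, in both cases Hist1h2bc. Its summed level was 12.5 to 15.9 CPM in RC control, 19.7 to 29.3 in RC siDux, 12.1 to 19.7 in LINE1 control and 23.2 to 33.1 in LINE1 siDux, without overlap between siDux and siControl under either ASO. This sum includes Hist1h2bc, and the lack of overlap rests on it. With Hist1h2bc left out, the libraries overlap under each ASO, under RC ASO through RC control 2 alone. That overlap does not show that the other rows were unchanged, and their ratios are not given here.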

How the data were processed

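RNA of 15 libraries (5 groups of 3) was measured by RNA-seq. The deposited gene table holds raw read counts for 23284 genes and 92 ERCC spike-ins. Per the submitters' processing notes, Trim Galore 0.4.0, TopHat2 2.0.9, DESeq2 1.12.3 and R 3.3.0 were used, with mm9. The sources used here do not state how multi-mapping reads or strand were handled. ERCC rows stayed out of library sizes and tests. The deposited counts entered edgeR 4.0.16 (R 4.3.3; filterByExpr, TMM, glmQLFit, 1 term per group, 10 residual degrees of freedom), with a threshold of 0.05 after Benjamini-Hochberg adjustment over 14696 genes. Intervals are 95% from the SE. The members, lists and tests were chosen with earlier results of these data known. Given in full are up to 3 members per class with the most reads, and members called without overlap, while other genes come from lists by smallest p. No 2 libraries were copies (chi-square per degree of freedom 2.962 to 47.748). Deviations correlated between same-numbered libraries for siDux by 0.241, 0.217 and 0.305 (RC ASO) and by 0.543, 0.33 and 0.616 (LINE1 ASO). In the other comparisons of groups the correlations ran from 0.078 to 0.471, a range that holds those of siDux under RC ASO. The labels name no batch, so the block is an alternative in every comparison. Alternatives were RLE, 2 other filters, ERCC scaling, the block, the groups compared only, each library left out, members with at least 100 counts, and DESeq2 1.42.0. The scripts were tested on simulated data. Sequences come from RefSeq (GRCm38.p6). No coordinates of the deposited table were used.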

Additional observations from a re-analysis of the deposited data

How the results depend on the processing

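Hist1h2bc with siDux under RC ASO kept its direction and call in all 13 alternatives run (log2 1.34 to 1.78, adjusted p 2.14e-06 to 0.0209). Under LINE1 ASO it kept its direction in 13 (1.03 to 1.43) and its call in 9, and Hist3h2a kept its direction (1.11 to 1.33) and its call in 6. Members called higher with siDux under LINE1 ASO were 0 with ERCC scaling, 1 (Hist3h2a) in a fit on the groups compared only, 1 among members with a mean of at least 100 counts, and 0 to 1 with a library left out. Under RC ASO they were 3 with the replicate block and 1 to 2 with a library left out. With LINE1 ASO under siControl the block gave 1 higher (Hist1h2bc, adjusted p = 0.0283) and 1 lower (Hist3h2a, adjusted p = 0.0198). Over all genes it called 1950 higher and 1957 lower there. Deviations of the same-numbered libraries correlated by 0.09, 0.165 and 0.229. Leaving out a library gave 0 to 1 higher and 0 to 2 lower. Beside the count with siDux under LINE1 ASO given above, the block changed no other count of members. Members differing among the 5 groups were 1 among those with at least 100 counts and 2 to 4 with a library left out, where the main fit called 43.2% of all genes. The shares of all genes called with a library left out, with ERCC scaling and on the groups compared only are not given. Counts of members in those settings therefore have no background and show no excess over it.

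Median log2 ratios of members moved with ERCC scaling to 0.47 for LINE1 ASO under siControl, 0.71 for siDux under RC ASO and -0.40 for the interaction. For LINE1 ASO under siDux that of members turned from 0.16 to -0.009 (9 and 6 of 14 above 0) and that of all genes from 0.001 to -0.23. With TMM 50.1% of all genes were above 0 there, and the share with ERCC scaling is not given. Over the members with at least 100 counts, Hist1h1c and Hist1h2bc, they were 0.10 for siNcl, 0.98 for siDux under RC ASO and 0.93 under LINE1 ASO. With a library left out they ran from -0.04 to 0.36 for LINE1 ASO under siControl, -0.42 to 0.14 for siNcl, 0.27 to 0.64 for siDux under RC ASO, 0.09 to 0.42 for LINE1 ASO under siDux, 0.38 to 0.63 for siDux under LINE1 ASO and -0.12 to 0.31 for the interaction. Class sums moved with ERCC scaling, as log2 ratios, to 0.79 (H1), 1.04 (H2A), 1.39 (H2B) and 0.78 (H4) for siDux under RC ASO, to 0.97 (H2A) for siDux under LINE1 ASO, to -0.29 (H2A) for LINE1 ASO under siControl, and to -0.35 (H2A) and 0.071 (H2B) for LINE1 ASO under siDux. Without RC control 2, an alternative chosen after seeing the data, the H2A sum moved to 1.03 for siDux under RC ASO. Signs turned with ERCC scaling for the interaction of Hist3h2a (-0.013) and for siDux under LINE1 ASO in Hist1h3c (-0.071) and Npat (-0.048), and, within values that no test called, with a library left out for siNcl in Hist1h2bc (-0.064 to 0.19), Hist3h2a (-0.61 to 0.13) and Hist1h1c (-0.036 to 0.34), for siDux under LINE1 ASO in Hist1h3c (-0.28 to 0.24), for siDux under RC ASO in Dux (-1.28 to 0.27), and for LINE1 ASO under siControl in Hist1h1a (-1.34 to 0.17). Apart from fewer samples or members where an alternative has them, the cause was not tested. Low counts of most members limit what can be seen, and intervals cover the spread between libraries only.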
